A study of Mus musculus with 17 samples.

Results

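The small nuclear RNAs (snRNAs) U1, U5 and U6 were measured by real-time PCR in mouse serum. They were chosen by their assay names, RNU1A1, RNU5G and U6 snRNA, and are 3 of the 365 assays of a serum panel that otherwise holds 357 miRNA assays and 5 spike-in or other control assays. The sera came from 7 transgenic AT-ATX mice with spontaneous tumors, 7 AT-ATX mice without tumors and 3 wild-type FVB/N mice labelled healthy. The transgene of the AT-ATX mice is Autotaxin, an enzyme found outside cells that produces the lipid signal lysophosphatidic acid. The labels give no promoter, strain of the transgenic mice, age or batch. Tumor replicate 5 has a question mark in its title and stayed in the group it was given. Each sample is labelled as 1 mouse. The titles of the transgenic mice also carry a number, which 8 mice share with another mouse and 6 of these with a mouse of the other transgenic group. The labels do not say what it marks, and the tests treat the mice as independent unless stated.

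snRNAs are the RNA cores of the spliceosome, the machine that removes introns from messenger RNA precursors in the nucleus. U1 pairs with the upstream splice site at the start of an intron, U5 holds the ends of the exons to be joined, and U6 forms the catalytic center. U1 and U5 are made by RNA polymerase II and carry a ring of Sm proteins, while U6 is made by RNA polymerase III and carries a ring of LSm proteins. U6 is widely used as a reference RNA for miRNA PCR in cells and tissues. Mature mammalian red blood cells and platelets have no nucleus.

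By symbol, the assays match the RefSeq mouse genes Rnu1a1 (an RNA of 164 bases), Rnu5g (116 bases) and Rnu6 (107 bases). RefSeq lists 4 U1 genes under this family name (Rnu1a1, Rnu1b1, Rnu1b2 and Rnu1b6) and 2 U6 pseudogenes, so the assays may read near-identical copies. The bases that the primers target are not described in the labels or the file.

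The deposited value is the quantification cycle (Ct), which is lower with more template, and 1 cycle is a factor of 2 under full PCR efficiency. All 3 snRNAs had a Ct in all 17 sera. The level used here is the mean Ct of the spike-ins UniSp2, UniSp4 and UniSp6 minus the Ct of the assay, on a log2 scale, so a higher level means more RNA. Spike-ins are synthetic RNAs added in fixed amount. Their mean Ct was 22.3 ± 0.22 (SD, n = 7) in tumor mice, 22.1 ± 0.29 (n = 7) in tumor-free mice and 22.3 ± 0.30 (n = 3) in wild-type mice, so they varied far less than the snRNAs. UniSp6 alone ranged over 18.97 to 19.26 in tumor mice and 19.37 to 19.53 in wild-type mice, which do not overlap. Levels of different assays depend on their PCR efficiency and are not compared with each other. In serum, fewer cells releasing an RNA and less RNA released per cell cannot be told apart.

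U1 was the RNA that differed most between the tumor-free transgenic and the wild-type sera. Its Ct in tumor-free mice ran from 22.98 to 27.70 with a median of 24.11, against 30.85, 30.64 and 32.54 in the 3 wild-type mice. The level in tumor-free mice was lowest at -5.02, had a median of -2.27 and was highest at -0.83, against -8.60, -8.62 and -9.93 in wild-type mice. Every tumor-free mouse lay above every wild-type mouse. The mean level was -2.73 ± 1.58 (SD, n = 7) in tumor-free mice and -9.05 ± 0.76 (n = 3) in wild-type mice. The log2 difference of 6.33 (SE 1.30, 95% interval 3.64 to 9.02, 80.2-fold) passed in limma with an adjusted p = 0.021. This was the largest difference and the smallest p of all 341 assays tested.

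Against this, 0.293% of the assays were called higher in tumor-free than in wild-type mice (1 of 341, U1 itself) and 0.88% were called lower (3 of 341). Groups that did not overlap were found in 0.88% of assays with tumor-free mice higher and in 10.3% with them lower. An unadjusted p under 0.05 was common in this comparison, at 25.8% of assays in limma and 33.1% by exact permutation, and 0.0% passed the exact test after adjustment. The median difference of all tested assays was -1.23, so U1 stood above the wild-type mice while most assays lay below them. The exact permutation test of U1 gave p = 0.00833, the smallest that 7 mice against 3 can give. Its adjusted p of 0.0861 did not pass. With p already at this floor, the adjusted p was set by how many other assays had a low p. The limma call was lost without tumor-free replicate 4 (adjusted p = 0.0574), without wild-type replicate 2 (adjusted p = 0.0934), and without the 4 sera described in the methods whose values share 1 decimal ending (adjusted p = 0.108), while the difference stayed between 5.89 and 6.71. With these endings as a block the difference was 6.71 and passed (limma, adjusted p = 0.0321). With the numbers in the titles as a random block, whose estimated correlation over all assays was 0.498, it was 6.54 and passed (limma, adjusted p = 0.026).

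U1 in tumor mice lay between these groups. The Ct ran from 21.24 to 30.001 with a median of 28.36, and the level from -7.64 to 1.08 with a median of -5.78. All 7 tumor mice lay above all 3 wild-type mice, an arrangement with tumor mice higher that 0.587% of assays showed. The mean level was -5.02 ± 2.90 (SD, n = 7) in tumor mice, against -9.05 ± 0.76 (n = 3) in the wild type. The difference of 4.03 on the log2 scale (SE 1.30, 16.3-fold) did not pass in limma (adjusted p = 0.066; exact permutation p = 0.0417). In this comparison 0.0% of assays were called higher and 7.33% lower, 4.69% did not overlap with tumor mice lower, and an unadjusted p under 0.05 was found in 26.4% (limma) and 14.4% (exact permutation). Tumor replicate 7 had the highest U1 level of all 17 sera. Without it the difference was 3.01 and passed in limma (adjusted p = 0.0349), and it also passed without tumor replicate 5 (4.15, adjusted p = 0.0421).

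**Figure D1:**
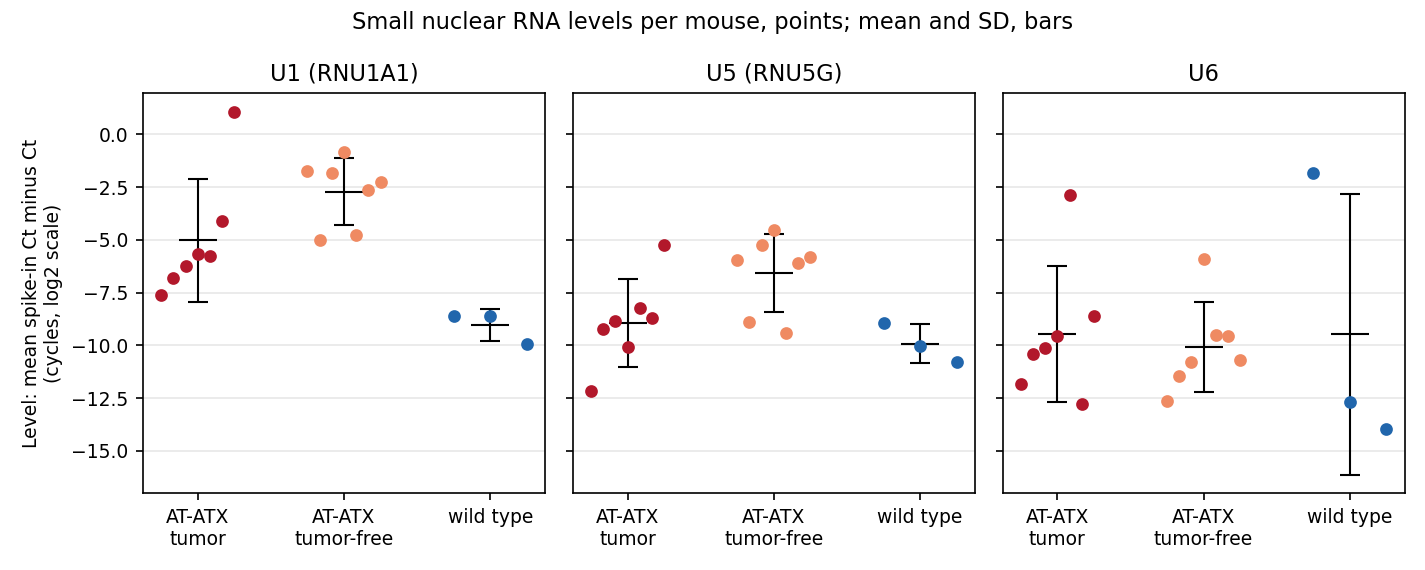
Level of U1, U5 and U6 in each mouse (y axis, mean spike-in Ct minus Ct in cycles) for tumor, tumor-free and wild-type mice; points are mice and bars are the mean and SD. U1 is higher in all 14 transgenic mice than in all 3 wild-type mice, U5 overlaps between groups, and U6 has 1 wild-type mouse at -1.82 and 1 tumor mouse at -2.89 far above the other mice of their groups.

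Between tumor and tumor-free mice the mean U1 level was -5.02 ± 2.90 (SD, n = 7) in tumor mice and -2.73 ± 1.58 (n = 7) in tumor-free mice. Of the 7 tumor mice, 5 were lower than each tumor-free mouse and 1, replicate 7, was higher than each. The log2 difference of -2.30 (SE 1.01, 95% interval -4.38 to -0.22) did not pass in limma (adjusted p = 0.834) or by exact permutation (p = 0.0909). In this comparison 0.0% of the 341 assays passed (4.69% had an unadjusted p under 0.05 in limma and 5.28% by exact permutation). Without tumor replicate 7 the difference was -3.32 and passed in limma (adjusted p = 0.0285), so this 1 mouse decides the call. In that fit 2 of the 341 assays were called, against 0 with all mice.

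U5 showed the same order of group means as U1, with smaller differences from wild-type mice. Its Ct in tumor-free mice ran from 26.68 to 31.58 with a median of 27.88, against 31.20, 32.06 and 33.40 in wild-type mice. The level ran from -9.42 to -4.52 with a median of -5.93 in tumor-free mice, against -8.95, -10.04 and -10.79 in wild-type mice. The groups overlapped: 6 of 7 tumor-free mice were higher than each wild-type mouse, and replicate 5 was not. The mean level was -6.56 ± 1.86 (SD, n = 7) in tumor-free mice and -9.93 ± 0.92 (n = 3) in wild-type mice. The log2 difference of 3.37 (SE 1.15, 10.3-fold) did not pass in limma (adjusted p = 0.0929; exact permutation p = 0.025). It was the third highest of the 341 differences. Without tumor replicate 1, a mouse of neither group, the difference was the same and passed in limma (adjusted p = 0.0466). In that fit 40 of the 341 assays were called, against 4 with all mice.

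In tumor mice the U5 Ct ran from 27.54 to 34.53 with a median of 31.12, and the level from -12.17 to -5.23 with a median of -8.84. Tumor replicate 7, the highest in U1, was also the highest tumor mouse in U5. Tumor replicate 1 was the lowest tumor mouse in both. The mean level of -8.93 ± 2.09 (SD, n = 7) in tumor mice differed by 1.00 (SE 1.15, limma, adjusted p = 0.6) from that in wild-type mice. It differed by -2.37 (SE 0.89, 95% interval -4.21 to -0.52, limma, adjusted p = 0.6; exact permutation p = 0.0571) from that in tumor-free mice.

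U6 did not follow U1 and U5. Its Ct was 24.07, 34.68 and 36.56 in the 3 wild-type mice, a range of 12.5 cycles. The last of these is close to the highest Ct of any assay, 36.998, so part of this range lies near the upper end of the values. The level ran from -12.79 to -2.89 with a median of -10.14 in tumor mice, from -12.63 to -5.91 with a median of -10.69 in tumor-free mice, and was -1.82, -12.67 and -13.95 in wild-type mice. Wild-type replicate 1 and tumor replicate 5 thus held the most U6 of all sera, and tumor-free replicate 4 came next at -5.91. All 3 groups overlapped.

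The mean U6 level was -9.47 ± 3.22 (SD, n = 7) in tumor mice, -10.08 ± 2.13 (n = 7) in tumor-free mice and -9.48 ± 6.67 (n = 3) in wild-type mice. None of the 3 differences passed in limma: 0.61 for tumor against tumor-free mice (SE 1.54, 95% interval -2.56 to 3.78), -0.60 for tumor-free against wild-type mice (SE 1.98, -4.70 to 3.50) and 0.01 for tumor against wild-type mice (SE 1.98, -4.09 to 4.10), with adjusted p from 0.873 to 0.997. These intervals are too wide to show that U6 was alike in the groups. The differences against wild type rested on replicate 1: without it they were 3.23 for tumor-free mice (limma, adjusted p = 0.357) and 3.84 for tumor mice (limma, adjusted p = 0.3). Without wild-type replicate 1 and tumor replicate 5 together, a choice made after their values were seen, U6 differed by 3.23, 2.74 and -0.49 in tumor-free against wild-type, tumor against wild-type and tumor against tumor-free mice. In the same setting U1 differed by 6.55 between tumor-free and wild-type mice (limma, adjusted p = 0.0465).

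The differences of U1 and U5 against wild-type mice were larger when each serum was set against its own miRNAs. With the panel mean, the Ct averaged over 252 miRNA assays that no serum lacked, in place of the spike-ins, U1 averaged 4.59 ± 1.17 (SD, n = 7) in tumor-free mice and -2.97 ± 0.76 (n = 3) in wild-type mice. The log2 difference of 7.56 passed in limma (adjusted p = 0.00011). The exact permutation p = 0.00833 did not pass after adjustment (adjusted p = 0.0789). On this scale 25.5% of assays had an unadjusted exact permutation p under 0.05, and 0.0% passed that test after adjustment. In tumor mice U1 averaged 2.43 ± 2.19 (n = 7) and differed from wild-type mice by 5.40, which passed (limma, adjusted p = 0.00584). U5 averaged 0.76 ± 1.47 (n = 7) in tumor-free mice and -3.84 ± 0.40 (n = 3) in wild-type mice, and its difference of 4.60 passed (limma, adjusted p = 0.000867), with all tumor-free mice above all wild-type mice. On this scale 1.17% of assays were called higher in tumor-free mice and 4.4% in tumor mice, each against wild type. Groups that did not overlap, with the transgenic mice higher, were found in 7.33% and 5.87% of assays.

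The mean Ct of the miRNA panel itself was 29.75 ± 1.18 (SD, n = 7) in tumor mice, 29.39 ± 0.83 (n = 7) in tumor-free mice and 28.37 ± 1.502 (n = 3) in wild-type mice. It was lowest on average in wild-type sera, that is, with more miRNA, and the 3 groups overlapped (27.95 to 31.67 in tumor, 28.14 to 30.50 in tumor-free and 27.00 to 29.98 in wild-type mice). With raw Ct, U1 differed by 6.54 between tumor-free and wild-type mice (limma, adjusted p = 0.0178), the only 1 of 341 assays called (0.293%, against 0.0% called in tumor against tumor-free mice). U5 differed by 3.58 on that scale (limma, adjusted p = 0.19). Relative to the panel mean, tumor against tumor-free mice differed by -2.17 in U1 (limma, adjusted p = 0.134) and by -2.23 in U5 (limma, adjusted p = 0.0571), where 1.17% of assays were called lower and 0.293% higher in tumor mice.

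**Figure D2:**
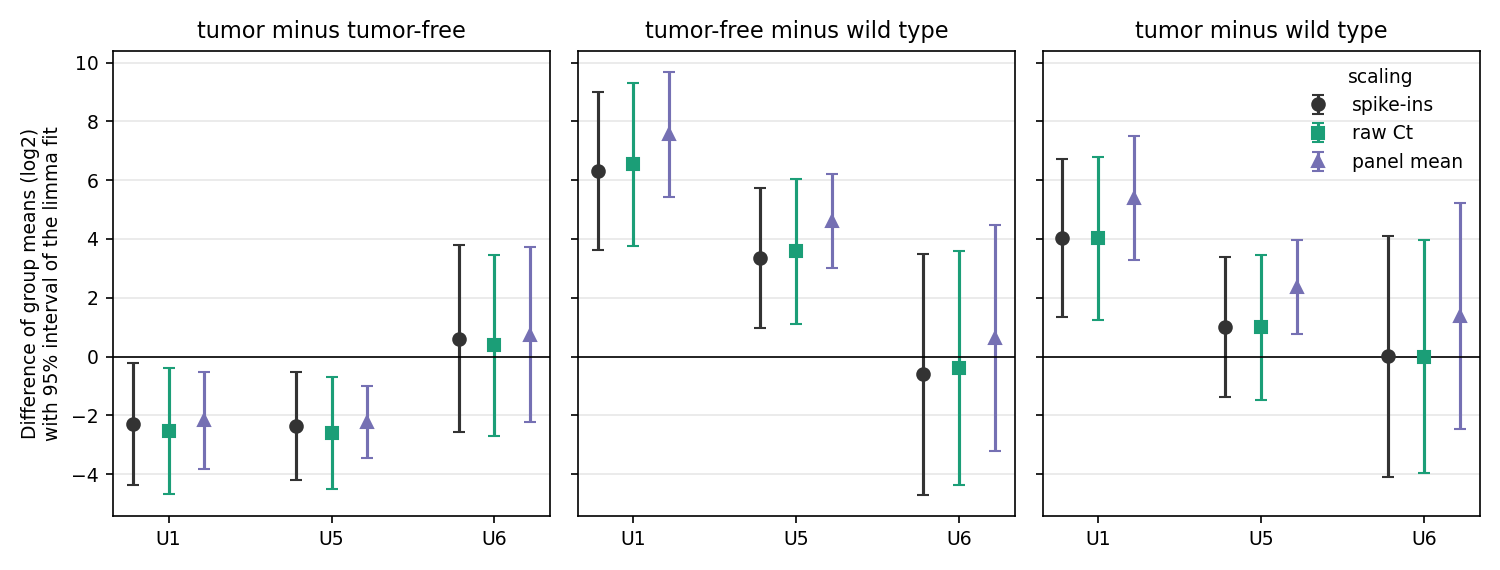
Difference of group means (y axis, log2) with its 95% interval for U1, U5 and U6 in the 3 comparisons, as levels against spike-ins, as raw Ct with the sign turned, and relative to the panel mean. U1 lies above 0 against wild type under each of these scalings, at 6.33, 6.54 and 7.56 for tumor-free mice, while the U6 intervals all include 0.

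The ratio of U1 to U5 within a serum needs no scaling. The Ct of U5 minus that of U1 was 2.40 to 6.30 with a median of 4.40 in tumor mice, 3.43 to 4.65 with a median of 3.70 in tumor-free mice, and 0.35, 1.42 and 0.86 in wild-type mice. No transgenic mouse was as low as any wild-type mouse, and the tumor and tumor-free mice overlapped. The mean was 3.901 ± 1.47 (SD, n = 7) in tumor mice, 3.83 ± 0.44 (n = 7) in tumor-free mice and 0.88 ± 0.54 (n = 3) in wild-type mice. U1 was thus higher relative to U5 in the transgenic sera, a description with no test. The Ct of U6 minus that of U1 had no such order: it ran from -2.89 to 9.69 in tumor mice and from 4.73 to 10.87 in tumor-free mice, and was -6.79, 4.05 and 4.02 in wild-type mice. How often U1 paired with a miRNA separates the groups as U1 and U5 do was not counted. Against spike-ins U1 had the largest difference between tumor-free and wild-type mice of all tested assays, 6.33, beside a median of -1.23. The separation is therefore not shown to be particular to the pair of U1 and U5.

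U1 and U5 went together from mouse to mouse within groups. With the group means taken off, their levels correlated over the 17 mice with r = 0.88 (permutation p = 3e-05; adjusted p = 0.00254 over the relations of U1 to 254 assays) and rho = 0.85 (permutation p = 0.00022, adjusted p = 0.00798). Leaving out the 2 farthest mice gave r = 0.83. A passing relation to U1 was common on this scale, at 112 of 254 assays with a median r of 0.56, and with raw Ct at 143 of 254. By group, r was 0.88 among tumor mice and 0.98 among tumor-free mice (n = 7 each). The relation held with raw Ct (r = 0.90) and relative to the panel mean (r = 0.79 with a permutation p = 0.0001 and an adjusted p = 0.0254, and rho = 0.83 with a permutation p = 0.00019 and an adjusted p = 0.0432). U5 was the assay closest to U1 of all 254 under each of these 3 scalings, and relative to the panel mean it was the 1 assay of 254 that passed. Both assays share the sample, the spike-ins and the set of final digits described in the methods.

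U6 was not related to them beyond the threshold. Its r was 0.17 with U1 (permutation p = 0.427 and adjusted p = 0.484, with rho = 0.18 and its permutation p = 0.453) and 0.37 with U5 (permutation p = 0.106 and adjusted p = 0.136, with rho = 0.48 and its permutation p = 0.0522). On the scale of the spike-ins 236 of 254 were closer to U1 than U6 was.

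**Figure D3:**
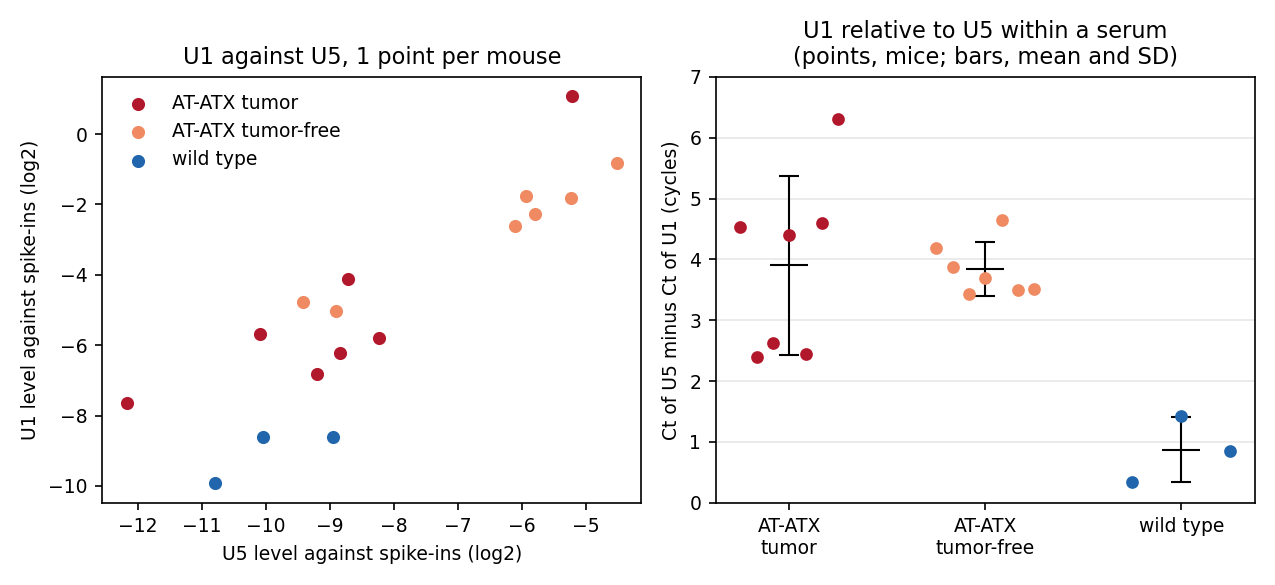
Left, the U1 level against the U5 level in each mouse, both against spike-ins on a log2 scale; right, the Ct of U5 minus that of U1 per mouse, with mean and SD bars. Mice high in U1 are high in U5, and the 3 wild-type mice lie at 0.35 to 1.42 cycles, below the 14 transgenic mice at 2.40 to 6.30. Pairs of U1 with miRNAs were not compared in this way.

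The snRNAs were also set against the total miRNA of the serum and against red blood cell RNA. U1 and U5 levels were lower in sera with less miRNA, that is, with a higher mean Ct of the panel (group means off, 17 mice). For U1, r was -0.74 (permutation p = 0.00048, adjusted p = 0.00124; rho = -0.77, permutation p = 0.00029) and -0.60 without the 2 farthest mice. For U5, r was -0.84 (permutation p = 0.00011, adjusted p = 0.000432; rho = -0.86, permutation p = 3e-05) and -0.72 without them. The same held for most assays: 216 of 255 passed, and the median r was -0.77. U6 did not pass (r = -0.50 with a permutation p = 0.11 and an adjusted p = 0.12, and rho = -0.40 with a permutation p = 0.178). An index of hemolysis, in which the Ct of the red blood cell miRNA miR-451a is subtracted from that of miR-23a-3p, gave r = -0.29 for U1, -0.31 for U5 and -0.14 for U6 (permutation p of 0.403, 0.276 and 0.697; adjusted p from 0.492 to 0.804; rho of -0.20, -0.33 and -0.11, with permutation p of 0.451, 0.216 and 0.741). Of the 255 assays 0 passed against this index on the scale of the spike-ins, so the snRNAs were no exception there. Relative to the panel mean 108 of 255 passed. U1, U5 and U6 did not, with r of -0.28, -0.35 and -0.11 (permutation, adjusted p of 0.527, 0.201 and 0.845). Group means were off here too, so these relations do not speak to differences between groups. The index averaged 3.97 ± 1.97 (SD, n = 7) in tumor mice, 4.38 ± 0.84 (n = 7) in tumor-free mice and 5.61 ± 2.07 (n = 3) in wild-type mice. Its part in the group differences was not tested.

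Lists of miRNAs known from cell types were set beside U1, and their part in its difference was not tested. Against spike-ins, the white blood cell list, from cells with nuclei, had a median difference of 0.04 between tumor-free and wild-type mice, with 4 of 7 members above 0. Its mean level ran from -5.65 to -3.60 in tumor-free mice and from -5.61 to -3.31 in wild-type mice. The red blood cell list had a median of -2.40 (0 of 5 members above 0) and a mean level from -2.68 to 0.82 in tumor-free mice and 0.34 to 1.17 in wild-type mice. The medians were -1.08 for the platelet list, -1.51 for the liver list and 0.66 for the muscle list, beside -1.23 for all tested assays. Relative to the panel mean, the median was 1.28 for the white blood cell list (6 of 7 members above 0) and 1.90 for the muscle list (5 of 5). On that scale it was -1.17 for red blood cells, 0.16 for platelets and -0.27 for liver, beside 0.07 for all tested assays. Of the members of these 5 lists 0 passed in limma in that comparison on either scale. Of all tested assays 1.17% passed against spike-ins and 1.76% relative to the panel mean. The count therefore does not set the lists apart from the panel.

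Within groups the snRNAs varied more than most miRNAs of the panel. The SD within groups of the level against spike-ins was 3.57 for U6, 2.18 for U1 and 1.86 for U5, against a median of 1.33 over the 252 miRNA assays detected in all mice. The SD of U6 was larger than that of all 252 miRNAs, whose largest was 3.00. This rested on wild-type replicate 1: without it the SD of U6 was 2.63, larger than that of 248 of the 252 miRNAs, whose largest was then 2.95. With all mice, the SD of U1 was larger than 240 of them and that of U5 larger than 228. The rank of U1 rested on tumor replicate 7. Without that mouse the SD of U1 was 1.34, larger than that of 157 of the 252 miRNAs, whose median was then 1.24. The SD of U5 was then 1.58, larger than that of 208. Of 5 miRNAs often used as serum references, miR-191-5p had an SD of 0.90, miR-423-5p 1.12, miR-425-5p 1.15, miR-93-5p 1.33 and miR-103-3p 1.48. With all mice, U6 was also more variable than all 252 miRNAs with raw Ct (SD 3.54) and relative to the panel mean (SD 3.10), where the SD of U1 was 1.65 and that of U5 was 1.19.

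The 5 reference miRNAs differed between tumor-free and wild-type mice by -2.47 to -0.76 against spike-ins, and 0 of 5 passed in limma (smallest adjusted p = 0.101). Levels scaled to these miRNAs put U1 8.05 above wild type in tumor-free mice (limma, adjusted p = 0.00188) and U5 5.09 above it (limma, adjusted p = 0.0175).

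**Figure D4:**
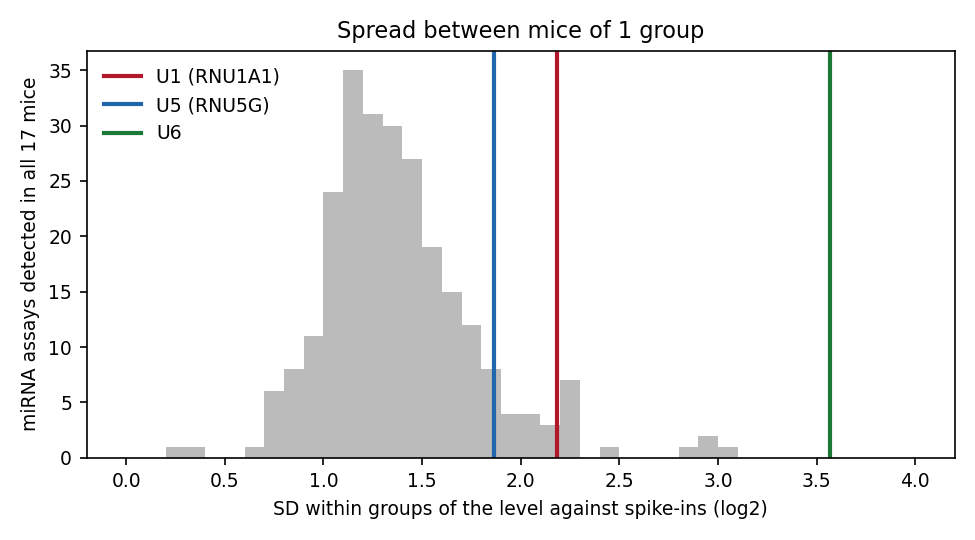
Number of miRNA assays (y axis) by the SD within groups of their level against spike-ins (x axis, log2), over the 252 assays detected in all mice; lines mark the 3 snRNAs. U6 at 3.57 lies beyond all miRNAs (2.63 without wild-type replicate 1, which is not drawn). U1 at 2.18 and U5 at 1.86 lie in the upper tail. Without tumor replicate 7, also not drawn, the SD of U1 was 1.34.

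The miRNAs most like each snRNA were taken as the 5 of 252 with the highest Pearson r over the 17 mice, on levels relative to the panel mean. All 5 were the same for U1 and U5: miR-1900, miR-29c-5p, miR-33-5p, miR-1839-3p and miR-709. For U1, r was 0.79, 0.79, 0.76, 0.74 and 0.72 in that order, and for U5 it was 0.81, 0.77, 0.76, 0.82 and 0.76. Since wild-type and transgenic mice lie apart in U1, the same values with group means off show what is left within groups: 0.19, 0.62, 0.61, 0.68 and 0.74 for U1. Within groups miR-1900 was thus the least like U1 of the 5, and miR-709 the most. The mature sequences of 3 of these miRNAs are shown so that their ends and seeds can be compared, from RefSeq (GRCm38.p6), with the seed (bases 2 to 8) in capitals. Of the 10 miRNAs named here for their likeness to an snRNA, 6 had an entry.
miR-1900 (chr9:21032261-21032282, minus strand): gGCCGCCCucucugguccuuca
miR-29c-5p (chr1:195037562-195037583, plus strand): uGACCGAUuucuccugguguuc
miR-33-5p (chr15:82198127-82198147, plus strand): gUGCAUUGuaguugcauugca
These 3 have different seeds. The 5 were picked by r over all mice on the panel-mean scale, where the gap between wild-type and transgenic mice enters r. Their differences from wild-type mice are therefore not independent of the choice and only describe it. Relative to the panel mean, miR-1900 was 5.74 higher in tumor-free than in wild-type mice (SE 0.80, limma, adjusted p = 0.00011). On this scale miR-33-5p differed by 2.40 (SE 0.74, limma, adjusted p = 0.113). The differences were 1.48 for miR-29c-5p, 2.46 for miR-1839-3p and 1.85 for miR-709 (limma, adjusted p from 0.149 to 0.185). Each was smaller than the 7.56 of U1. Against spike-ins miR-1900 differed by 4.50 between these groups and did not pass (limma, adjusted p = 0.0817). The others differed by 0.25 (miR-29c-5p) to 1.23 (miR-1839-3p) on that scale and did not pass (limma, adjusted p from 0.459 to 0.891).

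No miRNA was as close to U6. Its 5 highest were miR-152-3p, miR-100-5p, miR-532-5p, miR-378a-3p and miR-326-3p, with r from 0.45 to 0.51, and 0 of them were among the 5 of U1 or U5. Over the 14 transgenic mice alone, r was 0.11 for miR-152-3p, 0.15 for miR-100-5p, 0.43 for miR-532-5p, 0.46 for miR-378a-3p and 0.60 for miR-326-3p.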

How the data were processed

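Serum RNA of 17 mice was measured by SYBR Green PCR. Per the labels' protocols, 50 µL of serum gave the total RNA, and the PCR had 40 cycles on 2 panel plates. The authors deposited Ct per assay and sample, not normalized per the name of the file. Threshold, calibration between plates and detection limit are not given in the sources used here. All Ct are below 37, and an empty cell counts as no detection. No depth applies, and precision is limited by the number of mice.

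In 13 sera the final digits of the Ct differ between 245 assays, which include all 8 snRNA and control assays, and the other 120. They are the same for all assays in 4 sera (tumor replicate 1 and tumor-free replicates 4, 5 and 7). What this marks is not stated. These 4 sera hold no wild-type mouse and 1 tumor mouse, so no difference between groups within them is given.

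Testing required detection in 2 or more of the wild-type mice and in 5 or more of each transgenic group, which left 338 miRNA assays and the 3 snRNAs, 341 in all, with 160 missing values that the fit left out, 0 of them in the snRNAs. All groups entered 1 fit in limma (version 3.58.1, lmFit and eBayes, in R 4.3.3). Its p-values are two-sided and were adjusted by Benjamini and Hochberg's method over all 341 assays of a comparison, at a threshold of 0.05. Exact permutation tests were two-sided on differences of means, and 7 against 7 mice can give no p below 0.000583. Correlations used 100000 random orders within groups and were adjusted over all 255 assays (or the other 254) for each measure. Python 3.11.15, numpy 2.4.6, pandas 2.3.3, scipy 1.17.1 and matplotlib 3.10.9 were used, and the fit was tested on simulated data. Alternatives were other scalings, undetected values at a Ct of 37, another filter, trend and robust variance, exact permutation, the value endings as a block or left out, each mouse left out, and, added later, the title numbers as a random block (duplicateCorrelation).

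All 3 snRNAs are described, with the 5 most similar miRNAs each, 5 reference miRNAs and 5 cell type lists. The members and lists were chosen with earlier results of these data known. miR-142-3p and miR-142-5p were taken for the listed miR-142a arms, and miR-486a-5p was not used.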

Additional observations from a re-analysis of the deposited data

Results flagged for a closer look

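The snRNA values gave 24 groups of 7 (levels against spike-ins and panel mean, Ct, and their differences within a serum). Of these, 3 held a mouse that stood apart from the rest of its group. Chance gives about 1 in 20 for a single group. The groups reuse the same assays and mice, so they are not independent and their count is not set against that rate. The gap to the nearest mouse over the whole range was compared with Dixon's 95% critical value. The U1 level of tumor replicate 7 was 1.08 (gap over range 0.595), the highest of the tumor mice. The U6 level of tumor replicate 5 was -2.89 (0.578), and its U6 Ct was 25.47 (0.589), the mouse whose label carries a question mark. Wild-type replicate 1, with a U6 level of -1.82, belongs to a group of 3, which was not tested this way.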

How the results depend on the processing

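Replicates were numbered in accession order and pair no mice. Numbers in the titles, of unstated meaning, recur in both transgenic groups. As a random replicate block, a setting added after seeing the data, they left U1 called in tumor-free against wild-type mice (6.54) and changed no other call of the 3 snRNAs. U6 in tumor against wild-type mice turned to -0.13, and the called assays numbered 0 between the transgenic groups, 2 (4 without the block) for tumor-free mice and 7 (25 without it) for tumor mice, each of these against wild type. The 3 wild-type mice limit every comparison with them. For tumor-free against wild-type mice, U1 stayed higher in all 13 other settings of the methods (6.16 to 8.05) and passed in 11. These 13 do not include the fits with a mouse left out, of which it passed in 15 of 17, or the title numbers. Among the 13 the call of U1 was lost without the 4 sera of 1 value ending (6.25) and by exact permutation (6.33, adjusted p = 0.0861). Its unadjusted p in the exact test was the smallest possible. U5 passed with the panel mean (4.60), reference miRNAs (5.09) and the panel mean without the 2 sera of highest U6 (4.43), a setting chosen after seeing the data. U1 in tumor against wild-type mice passed with the panel mean (5.40), reference miRNAs (5.47), trend and robust variance (4.03) and the panel mean without those 2 sera (5.30).

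U6 turned above 0 in tumor-free against wild-type mice with the panel mean (0.64), reference miRNAs (1.12), and without the 2 sera against spike-ins (3.23) or the panel mean (3.802). It turned below 0 in tumor against wild-type mice with raw Ct (-0.0013), UniSp6 alone (-0.34) and the value endings as a block (-0.089), and in tumor against tumor-free mice without the 2 sera (-0.49 against spike-ins, -0.14 against the panel mean). The cause was not tested.

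Counts of called assays were 0 for tumor against tumor-free mice, 4 for tumor-free mice against the wild type and 25 for tumor mice against it. At an unadjusted p under 0.05 in limma the first was 16. The first was 5 with the panel mean and 10 with it without the 2 sera. The second was 1 with raw Ct or the block, 2 with UniSp2 alone or without the 2 sera, 13 with the panel mean without them, and 0 without the 4 sera or by exact permutation (113 unadjusted). The third was 15 with raw Ct or the block, 8 with UniSp2 alone, 62 with UniSp6 alone, 13 with UniSp2 and UniSp4, 10 with reference miRNAs, 3 without the 4 sera, and 0 without the 2 sera or by exact permutation (49 unadjusted).

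With each mouse left out in turn, the counts ran from 0 to 2, 0 to 59 and 0 to 69. In the same order of comparisons U1 ran from -3.32 to -1.86, 5.89 to 6.71 and 3.01 to 4.46, U5 from -2.98 to -1.82, 2.94 to 3.85 and 0.38 to 1.54, and U6 from -0.49 to 1.30, -2.84 to 3.23 and -2.23 to 3.84. The SD within groups ran from 1.34 to 2.27 (U1), 1.58 to 1.93 (U5) and 2.63 to 3.70 (U6).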

Other observations

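Of the 2 control assays not used for scaling, UniSp5 had a Ct of 34.2 ± 0.92 (SD, n = 7) in tumor mice, 33.6 ± 0.48 (n = 7) in tumor-free mice and 33.2 ± 0.54 (n = 3) in wild-type mice. cel-miR-39-3p, a worm miRNA used as a spike-in, had 27.1 ± 0.26, 27.3 ± 0.81 and 27.6 ± 0.82 in the same order. Both ranged over less than 3 cycles in all 17 sera, against 11.3 cycles for U1, 7.86 for U5 and 12.5 for U6.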
